A study of Mus musculus with 3 samples.

Results

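The 10 genes described here encode platelet proteins of the megakaryocyte lineage, and they were read in sorted mouse haematopoietic stem cells: Pf4, Itga2b, Itgb3, Vwf, Gp1ba, Gp1bb, Gp5, Gp6, Gp9 and Selp. They were chosen by name as a lineage list, with earlier results of these data known. All 10 of them had a probe set, among 23740 named genes and 25206 probe sets on the array. The cells were long-term haematopoietic stem cells from mouse bone marrow, sorted for ckit, Sca and CD150 and against lineage markers, Flk2 and CD48. They were left overnight in StemSpan SFEM, a serum-free medium, and then exposed to 0 Gy (unirradiated), 0.02 Gy (low dose) or 2.5 Gy (high dose) of gamma radiation, with RNA taken 2 hours later. Each dose had 1 array. All 3 groups share the sort and the overnight culture. The labels used here name no strain, genotype, age or sex and do not say whether animals were pooled. The series asks what stem cells do soon after a low dose.

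Platelets are shed by megakaryocytes, and their surface is built around a few receptor complexes. The GPIb-IX-V complex (Gp1ba, Gp1bb, Gp9, Gp5) holds platelets on von Willebrand factor, the product of Vwf. The integrin αIIbβ3 (Itga2b, Itgb3) binds fibrinogen, GPVI (Gp6) binds collagen, and platelet factor 4 (Pf4) and P-selectin (Selp) are stored in alpha granules. Several of these genes are also read in stem cells: a subset of mouse long-term stem cells expresses Vwf and is biased towards platelet output, and Itga2b, which encodes CD41, marks early stem and progenitor cells.

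Values are the authors' log2 values, so a difference of 1 is 2-fold, and there were no replicates. No difference therefore has a replicate check and no p-value is given. A fixed size of 2-fold was used to count genes. Beside each difference stands the central 95% of the differences of genes in the same decile of mean level (the level decile), which describes these arrays and is not replicate error. By construction some genes of each decile lie outside this range, and 10 genes were read in 3 comparisons. Levels of different genes were ranked only to form these deciles and the level minima given below. They were not otherwise compared, because probe sets differ in how brightly they bind. With so few arrays the precision of each value is limited.

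The sort markers were checked first. Kit was at 8.58, 8.78 and 8.50 (log2, unirradiated, low dose, high dose, the order used throughout), and Slamf1, the gene of CD150, was at 5.24, 4.75 and 4.84. Cd48 lay at 3.62, 3.31 and 3.40, below the level minimum of 4.56 (the median of all named genes) on every array. Flt3, which encodes Flk2, was at 4.60, 4.95 and 4.93, above that minimum although the sort selects against the protein. Of the 10 platelet genes, 8 had a mean at or above the minimum. Gp1ba passed it on the low-dose array alone, Gp6 on none, and Gp5 on the unirradiated and low-dose arrays.

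No platelet gene was 2-fold apart in any of the 3 comparisons. The background was 2.3% of all named genes for low dose minus unirradiated, 1.57% for high dose minus unirradiated and 2.21% for high dose minus low dose. The largest differences lay between the irradiated arrays, where Selp and Gp5 were lower at 2.5 Gy than at 0.02 Gy. Pf4, Vwf and Itgb3 read highest at 2.5 Gy, while Itga2b and most glycoprotein Ib-IX-V genes read highest at 0.02 Gy. In RNA from a bulk of sorted cells, fewer cells expressing a gene and less RNA per cell cannot be told apart.

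**Figure D1:**
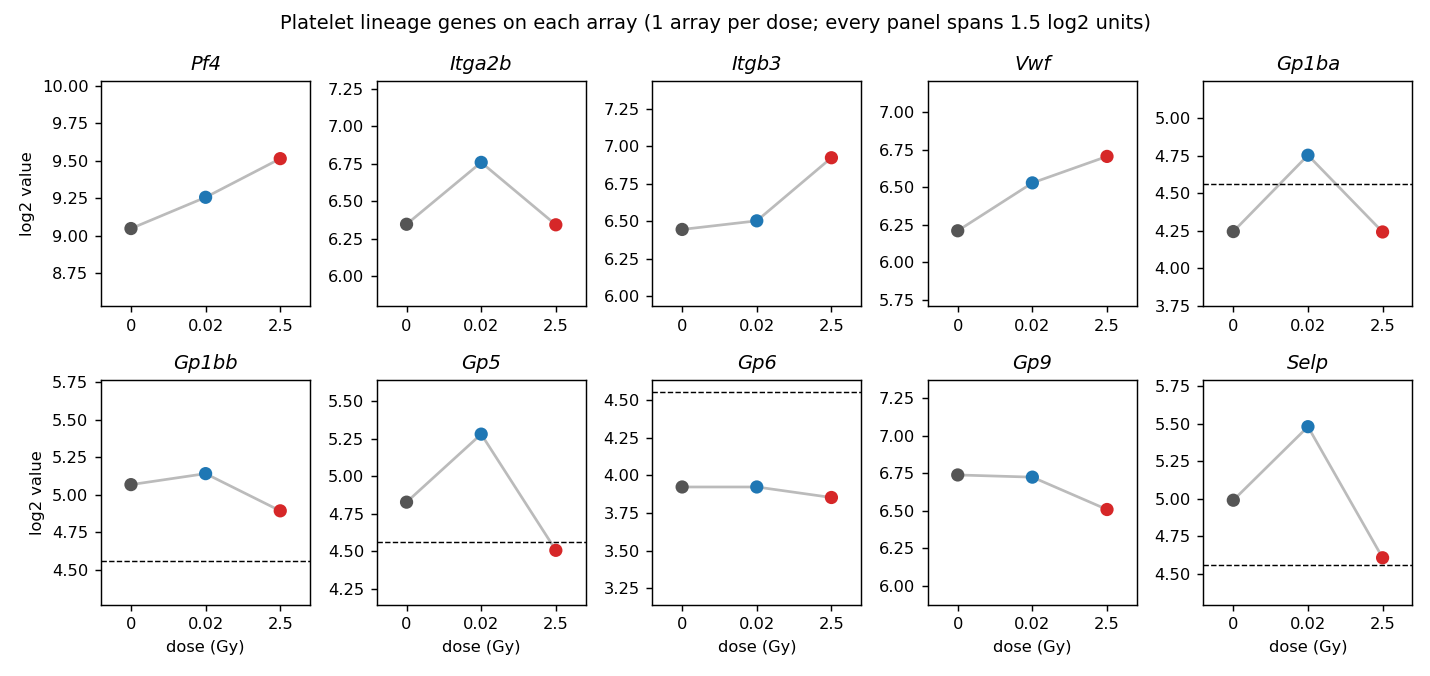
Deposited log2 value of each of the 10 genes (y axis, every panel spanning 1.5 log2 units) on the arrays at 0, 0.02 and 2.5 Gy (x axis, equally spaced categories); each point is 1 array and the dashed line is the level minimum of 4.56. Pf4, Itgb3 and Vwf are highest at 2.5 Gy, and Itga2b, Gp1ba, Gp1bb, Gp5 and Selp are highest at 0.02 Gy.

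The start-site regions of 3 of these genes are shown because their values went different ways: Selp and Gp5 had the lowest differences between the high and the low dose, and Pf4 was above 0 in the same comparison. GATA and ETS family factors are known to drive megakaryocyte genes, so short motifs of both families were searched on both strands. For the first family the only letters searched were AGATAA, so a window without them is not shown to lack other GATA motifs. For the ETS family they were AGGAAG and, as a further form of the same core, CGGAAG. Matches are in capitals, written as the reverse complement where the match is on the other strand. The ETS motifs differ in their first letter only, so one site can match only 1 of them. Each window runs from 250 bases before to 50 after a RefSeq transcript start, 5′ to 3′ along the gene, in build GRCm38.p6. The Selp window is chr1:164115014-164115313 on the plus strand, the Gp5 window chr16:30310732-30311031 on the minus strand and the Pf4 window chr5:90772185-90772484 on the plus strand.
Selp: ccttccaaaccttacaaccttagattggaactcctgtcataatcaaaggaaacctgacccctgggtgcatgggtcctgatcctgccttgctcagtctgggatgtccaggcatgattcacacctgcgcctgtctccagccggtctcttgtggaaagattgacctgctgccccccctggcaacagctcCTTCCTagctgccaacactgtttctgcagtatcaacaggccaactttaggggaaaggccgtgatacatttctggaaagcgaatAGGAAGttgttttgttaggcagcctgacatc
Gp5: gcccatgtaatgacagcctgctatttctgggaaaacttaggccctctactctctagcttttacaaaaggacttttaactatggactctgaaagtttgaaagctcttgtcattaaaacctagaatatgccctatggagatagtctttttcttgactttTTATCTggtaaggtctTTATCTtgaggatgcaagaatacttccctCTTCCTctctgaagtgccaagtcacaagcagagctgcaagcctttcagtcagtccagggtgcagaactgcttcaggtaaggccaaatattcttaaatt
Pf4: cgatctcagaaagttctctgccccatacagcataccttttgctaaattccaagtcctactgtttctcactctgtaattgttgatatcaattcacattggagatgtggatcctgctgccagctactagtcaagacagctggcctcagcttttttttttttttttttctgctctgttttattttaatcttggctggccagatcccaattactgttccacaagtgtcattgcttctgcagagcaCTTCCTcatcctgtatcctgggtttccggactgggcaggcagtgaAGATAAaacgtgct

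The Gp5 window held 2 AGATAA matches, whose first letters lay 93 and 77 bases before the start, and 1 AGGAAG match 48 bases before it. In Pf4 an AGGAAG match lay 9 bases before the start and an AGATAA match began at base 37 after it. Selp held 2 AGGAAG matches, 64 bases before the start and at base 20 after it, and no AGATAA. A RefSeq window was at hand for 8 of the 10 genes. AGGAAG was in 7 of these 8, against 35.4% of all 32851 windows of this length, AGATAA in 3 (Pf4, Gp5 and Gp6), against 11.2%, and CGGAAG in 1 (Gp1bb), against 16.9%. Pf4 and Gp5, which moved apart between the doses, both held AGATAA and an ETS motif, a pairing found in 4.7% of all windows. The matches are letters in a window and not shown to be bound.

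Among the granule and adhesion proteins, Pf4, the chemokine CXCL4 that platelets release (Entrez gene 56744), was at 9.05, 9.26 and 9.51. The high-dose array was 0.47 above the unirradiated array, 1.38 times on the linear scale, inside the −0.52 to 0.97 of its level decile. The low-dose array was 0.21 higher, beside a decile median of 0.19, and this sign turned after quantile normalization (−0.063) and after loess (−0.027). Pf4 was thus highest at 2.5 Gy, with the order of the other arrays set by the scaling.

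Vwf, the multimeric ligand of the GPIb-IX-V complex (22371), was at 6.21, 6.53 and 6.71. Its difference from unirradiated was 0.32 (low dose) and 0.50 (high dose, 1.41 times), both inside the central range of its decile. Of 2374 genes in that decile, 18.2% differed by at least as much in size between the high-dose and unirradiated arrays. Vwf kept its order over the arrays under quantile normalization, median centring and loess.

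Selp, the adhesion receptor that granules bring to the surface of activated platelets and that endothelium also makes (20344), was at 4.99, 5.48 and 4.61. Here the low-dose array was high and the high-dose array low, close to the level minimum. High dose minus low dose was −0.87, or 0.546 times, outside the −0.71 to 0.77 of its decile, and 3.16% of the decile differed as much in size. Against the unirradiated array the differences were 0.49 (low dose) and −0.38 (high dose), inside the ranges of the decile. A long non-coding RNA gene, Gm16548, overlaps Selp in the RefSeq annotation, and its own probe set read 5.48, 5.34 and 5.50, with its lowest value where Selp was highest.

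In the GPIb-IX-V complex all 4 subunit genes read lower at 2.5 Gy than at 0.02 Gy, in the deposited values and after quantile normalization, median centring and loess. For single arrays, 49.7% of all named genes were below 0 in that comparison. Gp5 (14729), the subunit cut by thrombin, was at 4.83, 5.28 and 4.51, so the high-dose value was just under the level minimum. High dose minus low dose was −0.77 (0.585 times), outside the −0.70 to 0.77 of its decile, where 4.38% of genes differed as much in size. The low-dose array was 0.45 above the unirradiated array and the high-dose array −0.32 from it.

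Gp1ba (14723), which carries the von Willebrand factor binding site, was at 4.24, 4.75 and 4.24. The unirradiated and high-dose values nearly coincide (difference −0.0027), while the low-dose array stood 0.51 above the first and passed the level minimum alone. Gp1ba lay below the minimum by its mean, so this peak is at a level where signal over background is not known. Gp1bb (14724), the partner chain linked to it by a disulphide bond, was at 5.07, 5.14 and 4.89, a difference of −0.25 between high and low dose. Gp1bb overlaps Septin5 in the annotation, and the Septin5 probe set, at 4.16, 3.96 and 4.05, was lowest where Gp1bb was highest. All of these Septin5 values are under the level minimum, so their order is not secure.

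Gp9 (54368), the small subunit needed to bring the complex to the surface, was at 6.74, 6.73 and 6.51. The first pair of arrays differed by −0.015, and the high dose was −0.23 from unirradiated, where 52.1% of its decile differed at least as much in size. The 4 genes of this complex therefore shared a direction between the doses while their sizes ran from −0.22 (Gp9) to −0.77 (Gp5). Of all 10 platelet genes 7 were below 0 in high dose minus low dose, so the direction is not particular to the complex. In that comparison 53.3% (Gp9) and 43.4% (Gp1bb) of the genes of their deciles differed at least as much in size.

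The integrin chains did not share a direction. Itga2b (16399), the αIIb chain found on megakaryocytes and early progenitors, was at 6.35, 6.76 and 6.34. Its unirradiated and high-dose values differed by −0.0037, and the low-dose array stood 0.41 above unirradiated, beside a decile median of 0.19. Itgb3 (16416), the β3 chain, which also pairs with αv outside this lineage, was at 6.44, 6.50 and 6.92. High dose minus low dose was 0.42 for Itgb3 and −0.42 for Itga2b, and 24.8% and 25.3% of the decile differed that much in size.

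Gp6 (243816), the collagen receptor, was at 3.92 on the unirradiated and low-dose arrays and 3.85 on the high-dose array, under the level minimum throughout. Its unirradiated and low-dose values were identical as deposited, which held for 80 of the 23740 named genes. Gp6 shows no difference that could be read at this level.

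**Figure D2:**
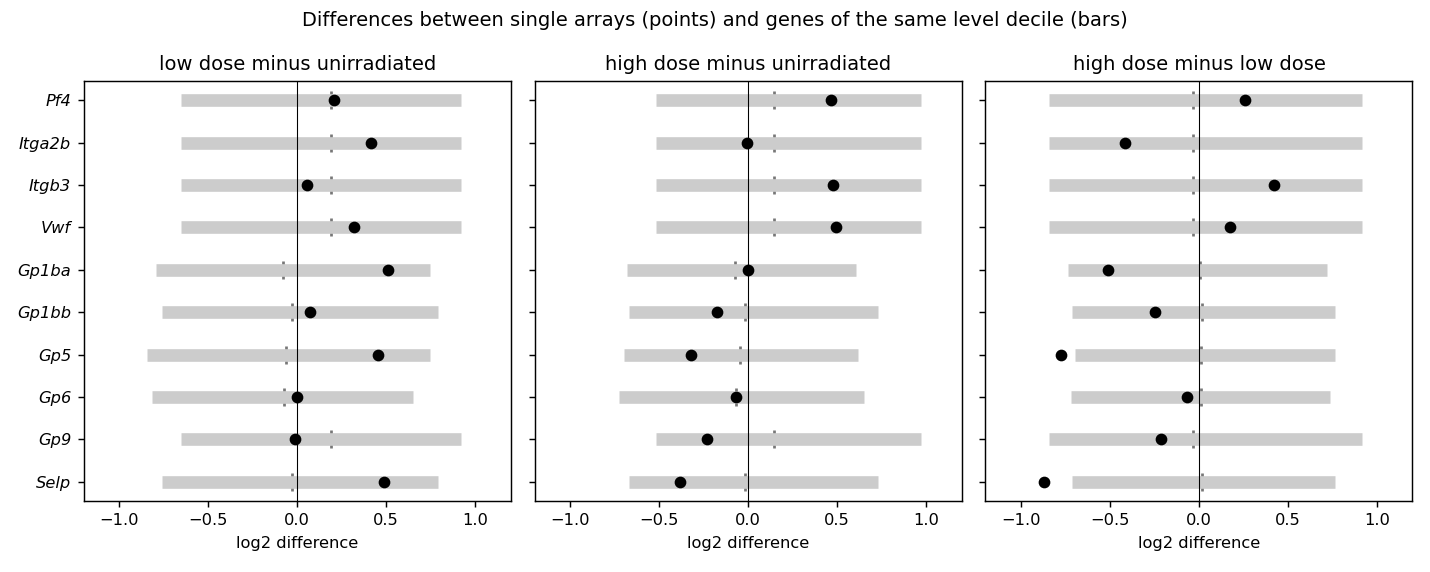
Log2 difference of each gene between single arrays (black points, x axis) in 3 comparisons, over the central 95% of the differences of genes in the same level decile (grey bars, with the decile median as a tick). Selp (−0.87) and Gp5 (−0.77) lie left of their bars in high dose minus low dose, and no point lies outside its bar in the other comparisons.

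The 8 genes past the level minimum can be set beside the 11870 genes past it. Their median difference was 0.26 at the low dose, against 0.040 for all genes, with 7 of 8 above 0 (54.3% of all genes, as deposited). After quantile normalization and after loess 5 of 8 were above 0. At the high dose the median was −0.089, against 0.026, with 3 of 8 above 0 (53.5%). High dose minus low dose gave −0.23, against −0.0022, with 3 of 8 above 0 (49.5%). Over all 10 genes the medians were 0.26, −0.037 and −0.23. These comparisons share arrays in pairs, so their medians are not independent. The low-dose median was 0.14 after quantile normalization and 0.14 after loess, beside −0.0047 and −0.0018 for all genes past the minimum. After median centring it was 0.33, beside 0.11, with 8 of 8 above 0. Part of the low-dose median thus moved with the scaling. The high-dose median summed up a split rather than a shift: Pf4, Itgb3 and Vwf were at 0.47 to 0.50, and the other 5 genes between −0.38 and −0.0037. It was 0.47 for the 5 genes past a minimum at the 75th percentile, which leaves out Gp1bb, Gp5 and Selp. For the same 5 genes high dose minus low dose was 0.18, so the negative median of that comparison rests on the genes under the stricter minimum.

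At a fold size of 1.5 in either direction the count was 2 of the 10 genes in high dose minus low dose, Selp and Gp5, both lower. Of all named genes 4.82% were lower by that size. That share leaves out the genes that were higher, so it understates the share in either direction, which was not counted. In the comparisons with the unirradiated array no member was 1.5-fold apart, where 10.8% (low dose) and 8.53% (high dose) of all named genes were, in either direction. By order of the arrays, 5 of the 10 genes (Itga2b, Gp1ba, Gp1bb, Gp5 and Selp) were highest at the low dose, as were 33.3% of all named genes, and these 5 stayed so under the 3 scalings. Another 3 (Pf4, Itgb3 and Vwf) read upwards from unirradiated through low to high dose, as did 14.1% of all named genes, but only Vwf did so after quantile normalization and loess, where Pf4 and Itgb3 were lowest at the low dose.

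Other genes of the lineage were read from 4 lists of transcription factors, surface receptors, granule proteins and cytoskeletal or signalling proteins. Of 92 symbols 91 were measured and 75 passed the level minimum. At the low dose 62 of these 75 were above 0 (54.3% of all genes past the minimum) with a median of 0.24, and none was 2-fold apart (2.44%). At the high dose 54 were above 0 (53.5%) with a median of 0.22, and 1 was 2-fold higher (1.15%). After quantile normalization 49 and 50 of the 75 were above 0, with medians of 0.075 and 0.12, and after loess the same counts with 0.074 and 0.13. All genes past the minimum then had medians of −0.0047 and −0.0099 (quantile normalization) and −0.0018 and −0.0040 (loess). Both irradiated arrays read above the unirradiated one at high levels, by a median of 0.19 (low dose) and 0.15 (high dose) in the top decile.

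Megakaryocyte transcription factors had a median of 0.24 at the low dose (16 of 20 above 0) and 0.25 at the high dose (14 of 20). At the low dose these were 0.081 (quantile normalization) and 0.072 (loess), each with 13 of 20 above 0. Mafg, a small Maf protein that pairs with NF-E2 p45, was at 4.45, 5.03 and 5.89, and its high-dose difference of 1.44 was the only one of the 4 lists past 2-fold against unirradiated; its unirradiated value was below the level minimum. Gfi1b, a repressor needed for megakaryocyte and erythroid development, was at 7.26, 7.51 and 8.04, higher by 0.77 at the high dose. Ldb1, the bridging cofactor of GATA and TAL1 complexes, was at 7.36, 7.67 and 8.03.

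Meis1, a homeobox factor of stem cells and megakaryocytes, was at 7.05, 7.58 and 6.79, a difference of −0.79 between high and low dose, in the same array order as Selp and Gp5. Gata1, the master factor of megakaryocyte and erythroid cells, was nearly level at 5.41, 5.39 and 5.31, and Gata2, which acts earlier in the lineage, was at 6.72, 6.86 and 6.55. Fli1, the ETS factor of this lineage, was at 6.10, 6.46 and 6.39, and Runx1, the core binding factor, at 7.05, 7.28 and 7.37. Fli1 and Runx1 were above 0 at both doses, by 0.24 to 0.36, and their sign held under the 3 scalings. The size of Runx1 did not: its low-dose difference of 0.24 was 0.035 after quantile normalization and 0.029 after loess, and its high-dose difference of 0.32 was 0.14 and 0.17.

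Surface receptors outside the complexes above had medians of 0.24 at the low dose (16 of 18 above 0) and 0.11 at the high dose (11 of 18), and the low-dose median was 0.11 after quantile normalization and after loess (14 of 18 in both). Pecam1, an adhesion molecule of platelets and endothelium, was at 6.11, 6.99 and 6.54, with the low dose highest. Fcer1g, the signalling chain that GPVI needs, was at 5.56, 6.0 and 6.23, and F2rl2, the thrombin receptor PAR3 of mouse platelets, at 7.34, 7.36 and 6.92.

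Granule and secreted proteins had medians of 0.14 at the low dose (10 of 15 above 0) and 0.28 at the high dose (12 of 15), and the low-dose median turned below 0 after quantile normalization (−0.0063) and loess (−0.024). Vegfa, a growth factor that platelets carry, was at 6.34, 6.48 and 7.20, and Timp3, a metalloproteinase inhibitor, at 6.01, 5.70 and 6.70. Timp3 was 1.0 higher at the high than at the low dose, the only gene of the lists past 2-fold in that comparison (1.45% of all genes past the minimum were 2-fold higher). This call lay at the limit and was lost after quantile normalization and after median centring (0.98 in both). Lgals3bp, a secreted glycoprotein that binds galectins, was at 6.01, 6.68 and 6.84. Ppbp, a platelet chemokine whose gene neighbours Pf4, was at 5.08, 5.09 and 4.39, with the high-dose value under the level minimum on the array where Pf4 was highest.

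Genes of the cytoskeleton, signalling and platelet release had medians of 0.22 at the low dose (20 of 22 above 0) and 0.15 at the high dose (17 of 22). At the low dose quantile normalization gave 0.053 and loess 0.056, each with 15 of 22 above 0. Lcp2, the adaptor SLP-76, was at 8.14, 8.36 and 8.91, and Fermt3, kindlin-3, which activates αIIbβ3, at 5.87, 6.46 and 6.58. Pdlim1, an actin-binding adaptor, was at 6.19, 6.91 and 6.53, and Vps33b, a protein of alpha granule formation, at 5.41, 5.57 and 4.90. In high dose minus low dose this list had a median of −0.039, the receptors −0.11, the transcription factors 0.048 and the granule proteins 0.15, against −0.23 for the 8 platelet genes.

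**Figure D3:**
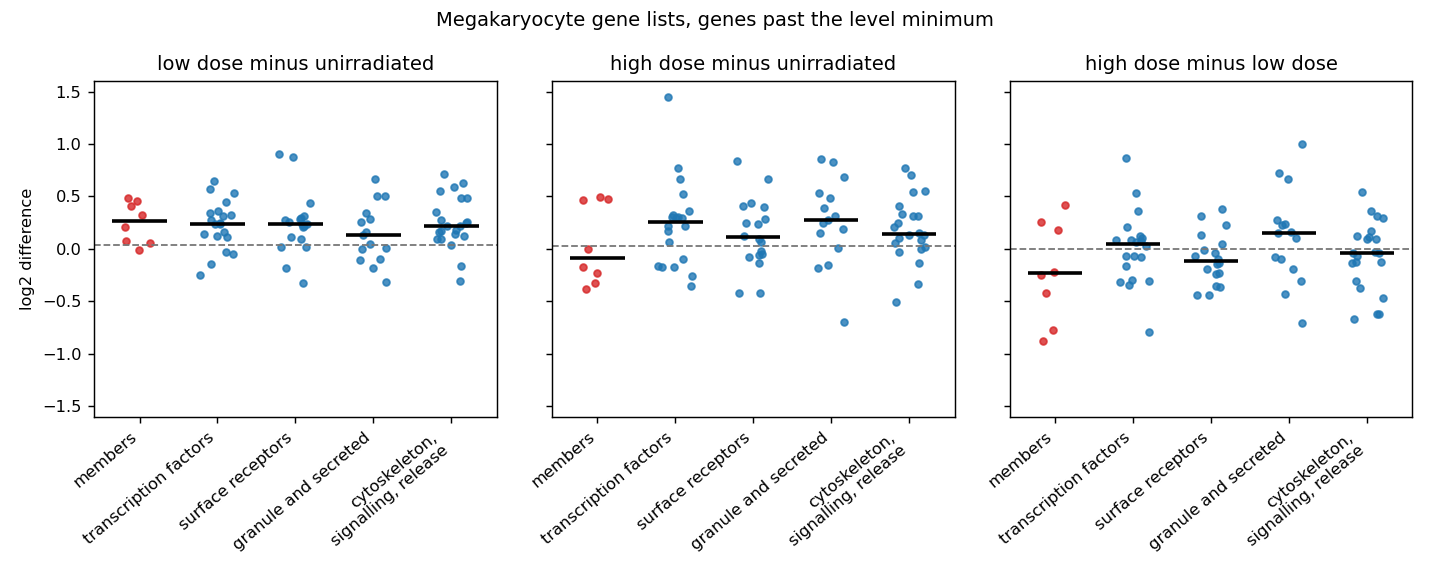
Log2 differences (y axis) of the 8 platelet genes past the level minimum (red) and of the 4 wider lists (blue) in 3 comparisons; each point is 1 gene, black bars are medians and the dashed line is the median of all genes past the minimum. The list medians lie above the dashed line at the low dose (0.14 to 0.26), and in high dose minus low dose the platelet genes have the lowest median (−0.23).

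By closeness of its pair of differences from the unirradiated array, Selp, the member with the widest range over the arrays, was nearest to Crlf3, Olfr859, Alg8, Fam71e1 and Il17ra, at distances of 0.031 to 0.057 log2. With 3 arrays such closeness rests on that pair alone, and 20 of the 11870 genes past the minimum lay within 0.1 of Selp. Closeness of this kind does not link a gene to Selp. Olfr859 belongs to a receptor family with near-identical copies, so its probe set is uncertain.

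Markers of other cells were read on the same arrays, and the log2 of their summed linear level is given here. Mature myeloid markers were at 8.61, 9.27 and 9.46, with 7 of 11 past the level minimum. Without S100a8 and S100a9, the calprotectin subunits, the sum was 7.84, 7.98 and 8.03. Of all 7 myeloid markers past the minimum, 0 were highest on the unirradiated, 3 on the low-dose and 4 on the high-dose array. Their median low-dose difference from unirradiated was 0.56 (6 of 7 above 0), and their median high-dose difference was 0.70 (7 of 7). The neutrophil genes Ly6g (5.06, 4.33 and 4.21) and Ngp (4.23, 3.32 and 3.31) read highest on the unirradiated array. Both had a mean below the level minimum, and Ngp was below it on every array. Mast cell and basophil markers were at 7.26, 7.92 and 7.26, with 2 of 8 past it, and on the low-dose array Mcpt8, a basophil protease, was at 7.08, against 5.63 and 5.72. That is the array on which Selp, Gp5, Gp1ba and Itga2b were highest. Without Mcpt8 the sum was 6.69, 6.74 and 6.65, and Prss34, the only other marker of the list past the minimum, was lowest at the low dose (5.15, 5.0 and 5.14). Endothelial markers, whose cells also make Vwf and Selp, were at 8.63, 8.89 and 8.80, with 8 of 10 past the minimum. Of these 8, 4 were highest at the low dose, 3 at the high dose and 1 on the unirradiated array. Pecam1, given above among the platelet surface receptors, is also on this list. It had the largest low-dose difference of the list (0.88), and the sum without Pecam1 was not taken. Cdh5, the endothelial cadherin, was at 4.79, 5.15 and 4.49, the array order of Selp and Gp5, while Kdr, a VEGF receptor, was lowest at the low dose (5.19, 4.68 and 4.84) and Tie1, a receptor kinase, was highest at the high dose (6.31, 6.33 and 6.67). Erythroid markers were at 7.75, 7.54 and 7.72, with 4 of 9 past it, and lymphoid markers at 8.21, 7.99 and 8.11, with 3 of 12. The summed level of the 10 platelet genes was 9.98, 10.2 and 10.3, and without Pf4 it was 8.90, 9.12 and 8.99, so the order of the irradiated arrays rests on Pf4. In the deposited values 7 of the 10 genes were lowest at the high dose, as were 33.1% of all named genes. Under all 3 scalings Gp1ba was instead lowest on the unirradiated array, as was Itga2b after median centring. The part of the other cells' markers in the platelet gene values was not tested.

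**Figure D4:**
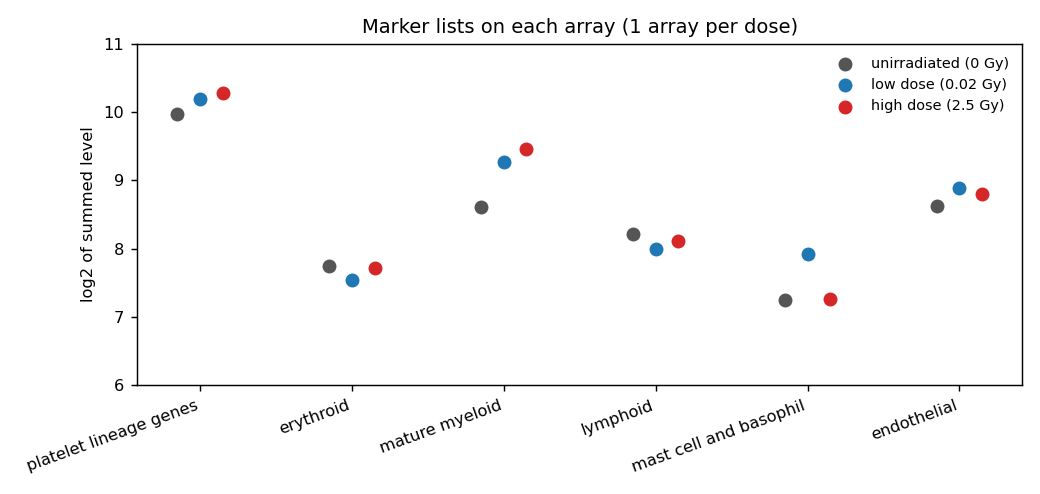
Log2 of the summed linear level of the 10 platelet genes and of 5 marker lists of other cells (y axis) on the 3 arrays (points, 1 array per dose); lists differ in their number of genes, so heights are to be compared only within a list. The platelet genes read 9.98, 10.2 and 10.3 (8.90, 9.12 and 8.99 without Pf4), and the mast cell and basophil list is highest at the low dose (7.92).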

How the data were processed

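Expression was measured on 3 arrays, 1 per dose, and grouped by the dose in the labels. The deposited values are the authors' log2 values, 1 per probe set, from 1.55 to 12.4; the log2 scale was read from the values. Partek is named without a role or version, per the submitters' processing notes; how background was corrected and arrays were normalized and summarised is not given in the sources used here. Array medians were 4.60, 4.54 and 4.55. No scanner files were used here, so detection could not be assessed.

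Probe set identifiers are Entrez gene IDs. The platform annotation named 23185 probe sets; 555 more, Gp1ba among them, were named through RefSeq (GRCm38.p6 table) by that ID, and 1466 stayed unnamed. No gene had more than 1 probe set. Differences between arrays were taken per gene, with no test. The level minimum was the median of the mean levels of all named genes. Named were the 10 genes, the sort markers, 5 fixed lineage genes (a further gene of this rule is not reported here), in each list the 4 genes of largest difference, and the 5 genes nearest to 1 member; marker genes of other cells, overlapping genes and counts of 5 or fewer were named after their values were seen. The members and lists were chosen with earlier results of these data known. Mkl1 was matched as Mrtfa through its older name, and Bin2, Hba-a1 and Lyz2 were not matched. Steps were tested on simulated data. Alternatives were 2 other level minima, quantile normalization, median centring, loess (span 0.3), fold sizes of 1.5 and 3, list means, platform names alone and, chosen after seeing the data, list sums without their leading genes. Python 3.11.15, pandas 2.3.3 and statsmodels 0.14.6 were used. Promoter windows are RefSeq's.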

Additional observations from a re-analysis of the deposited data

How the results depend on the processing

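No paired analysis was possible because every group consists of a single array. The 10 platelet genes gave 0 genes 2-fold apart in each comparison under quantile normalization, median centring and loess, and 2 in high dose minus low dose at 1.5-fold. The count of 0 at 3-fold follows from the count at 2-fold and is no check. Of 90 member differences under the 3 scalings, 90 moved by less than the robust spread of their level decile, and 9 changed sign, none larger than 0.21 in size. The median of the platelet genes at the high dose (−0.089) was 0.47 at a minimum of the 75th percentile and 0.041 as a mean; in high dose minus low dose (−0.23) it was 0.18 at that minimum. After quantile normalization and loess, low-dose medians were 0.081 and 0.072 (transcription factors), 0.11 and 0.11 (receptors), −0.0063 and −0.024 (granule proteins) and 0.053 and 0.056 (cytoskeleton and signalling), and the high-dose median of transcription factors was 0.13 and 0.15. With no minimum the high-dose median of granule proteins was 0.17. At the 75th percentile minimum transcription factors gave −0.016 in high dose minus low dose. The other 92 values of counts and medians kept their count or moved by less than the standard error of such a median, taken from the spread over all genes past the minimum. The naming alternative, chosen after seeing the data, was among them, as were the counts at 3-fold, which could not change. That standard error treats genes as independent and is not replicate error. A median could drop widely within it, as the platelet low-dose median did after quantile normalization (0.26 to 0.14). Of all genes past the minimum, 156 were 2-fold higher and 134 lower at the low dose as deposited, 202 and 110 after median centring, 129 and 160 after quantile normalization and 126 and 150 after loess, so the balance turned with the scaling. The cause was not tested for these shifts. Without signal over background, Gp1ba, Gp6 and the high-dose value of Gp5 are the least secure.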
